A study of Canis lupus familiaris with 23 samples.

Results

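CAT, DECR1, ACAA1, ECHS1 and SLC27A2 encode enzymes with which a cell takes up, activates and burns fatty acids, or deals with the peroxide that burning them in peroxisomes makes. The features examined were all probe sets of the canine array whose platform annotation gave 1 of these 5 symbols, which were 15 of the 23836 probe sets tested. CAT had 5 probe sets, DECR1 and ACAA1 had 4 each, and ECHS1 and SLC27A2 had 1 each. Expression was measured on 23 Affymetrix Canine Genome arrays, and the deposited values are log2 expression values from robust multi-array averaging (RMA). The arrays held tissue of 15 primary osteosarcomas of dogs that had not yet had chemotherapy. Of canine osteosarcoma cell lines there were 2. Normal kidney, liver and lymph node, with 2 samples an organ, came from dogs of a research colony. The labels give no strain or age for the dogs, and the sources do not tie the line names MC-KOSA and BW-KOSA to single arrays, so the lines are called cell line 1 and cell line 2. Normal bone, the tissue in which these tumors arise, was not among the samples, and the spleen that the methods also name is not analysed here.

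Fatty acids are broken down by beta-oxidation, a cycle of oxidation, hydration, oxidation and cleavage that shortens the chain and releases acetyl-CoA. Mitochondria carry out most of it and make energy from it, while peroxisomes take the very long and branched chains and pass on shortened ones. The first peroxisomal step hands its electrons to oxygen and makes hydrogen peroxide, which catalase, the product of CAT, breaks down. Hepatocytes and the proximal tubule cells of the kidney are rich in both organelles. SLC27A2 makes a carrier and very long-chain acyl-CoA synthetase that brings fatty acids in and activates them. DECR1 makes the mitochondrial dienoyl-CoA reductase needed for unsaturated chains, ECHS1 the mitochondrial enoyl-CoA hydratase of the hydration step, and ACAA1 the peroxisomal thiolase of the cleavage step.

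The organ labels were checked against cell type markers, as the mean log2 level of each list's measured genes. Of 18 hepatocyte markers 14 were measured, and their mean was 9.73 to 9.94 in liver and at most 5.50 elsewhere. Of 18 kidney tubule markers 11 were measured, with 8.19 to 8.61 in kidney and at most 6.25 elsewhere. The lymphocyte list had 3 of 16 measured, with 8.75 to 9.80 in lymph node and at most 6.82 elsewhere. Of 12 osteoblast markers 8 were measured, with 7.88 to 9.55 in the tumors, 7.07 to 7.71 in the cell lines and at most 7.05 in the organs. The arrays also fell into a group of 10 with low signal at the 5′ end of the actin and Gapdh control transcripts and a group of 13 with full 5′ signal. The low group held 7 tumors and replicate 1 of every organ, and both cell lines had full 5′ signal. Results that this split touches are given within each group of arrays as well.

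Each gene is described by its brightest probe set, the one with the highest mean over 23 arrays, and the others are given where they differ. Levels of different genes come from different probes and are not compared with each other. Bulk tissue was measured, so fewer cells of a type and less RNA per cell cannot be told apart. A difference was called when its adjusted p in limma, with Benjamini-Hochberg adjustment over all probe sets, was under 0.01. The shares of all probe sets given beside counts of genes also cover dim probe sets and those without a symbol. They are therefore not shares of like probe sets. Statements that samples do not overlap are a description, since the share of all probe sets without overlap was not counted.

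All 5 genes were higher in kidney and liver than in the tumors. On the brightest probe set of each, all 15 tumors lay below the lowest kidney or liver sample. In this comparison 7.91% of all probe sets were called higher. The smallest gap between the organs and the highest tumor was 0.62 log2 for ACAA1 and the widest was 4.93 for SLC27A2. All 5 calls held in the arrays of low 5′ signal alone, in those of full 5′ signal alone, and with any 1 of the 23 arrays left out, as they did with each other alternative in which the gene was tested. Taken singly, kidney was called above the tumors for 5 of 5 genes against 5.26% of probe sets, and so was liver, against 5.86%. For ACAA1 the kidney call rested on the brightest probe set alone. Its other probe sets were not called for kidney against the tumors. They were 1597719_at (0.23 ± 0.20, limma adjusted p = 0.610), 1592158_x_at (0.53 ± 0.17, 0.0481) and 1592344_x_at (0.36 ± 0.18, 0.256).

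**Figure D1:**
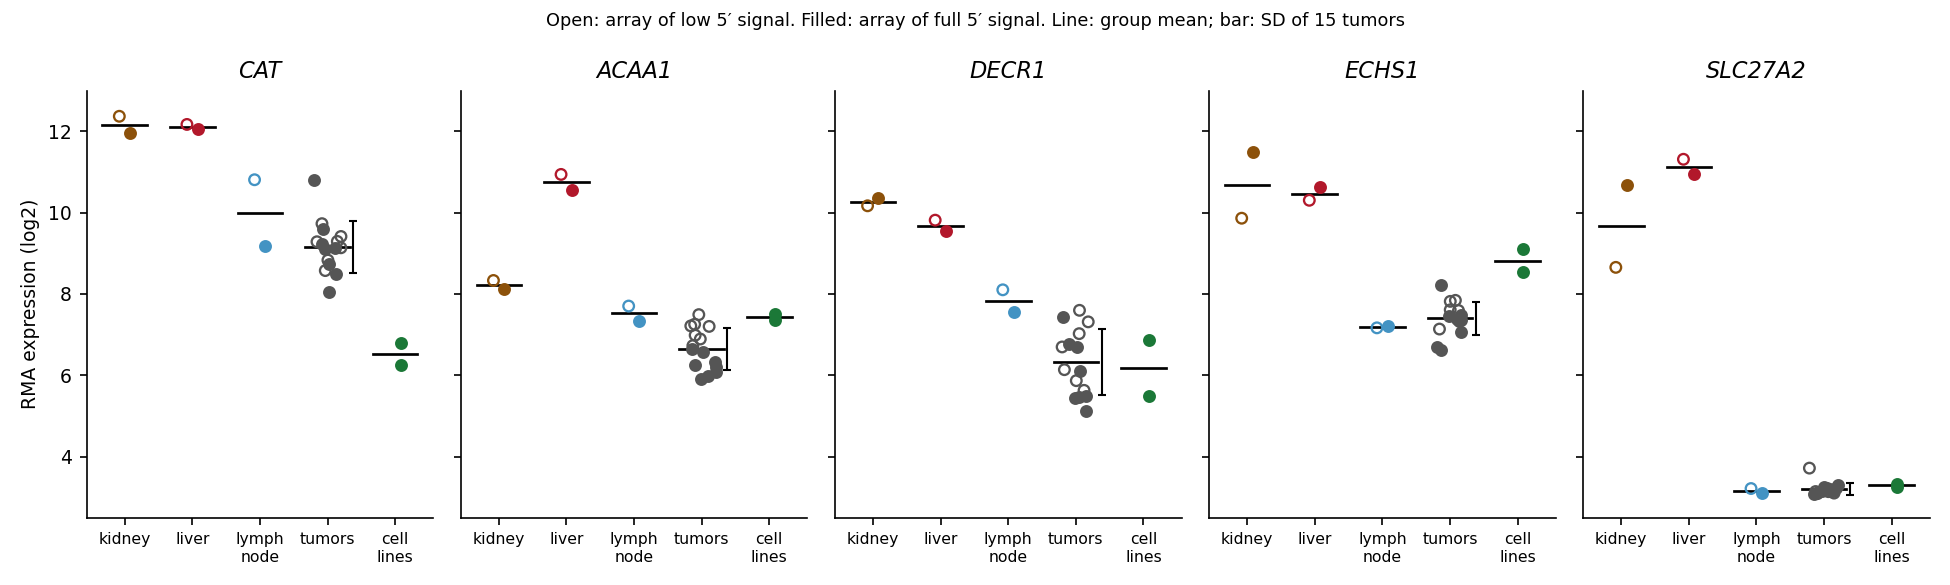
RMA log2 expression (vertical axis) of the brightest probe set of each of the 5 genes in every array, by group. Open points are arrays of low 5′ signal, filled points those of full 5′ signal, lines are group means and the bar is the SD of the 15 tumors; kidney and liver lie above all tumors in every panel, and the cell lines lie below all tumors for CAT and above them for ECHS1.

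SLC27A2, the carrier and synthetase at the entry of the pathway, differed most between the organs. Its level was 8.65 and 10.68 in kidney, 11.31 and 10.95 in liver, 3.22 and 3.10 in lymph node, and 3.33 and 3.26 in cell lines 1 and 2. In the tumors it ran from 3.07 through a median of 3.15 to 3.72. Kidney and liver were the only high groups, and the mean of the tumors was above only 3.49% of all probe sets, that of the lymph nodes above 3.09% and that of the cell lines above 5.8%. The difference of kidney and liver from the tumors was 7.19 ± 0.20 (SE, limma adjusted p = 5.95e-17), a ratio of 146 on the RMA scale. That from lymph node was 7.24 ± 0.31 (limma adjusted p = 2.34e-13). Since RMA shrinks differences at dim levels, these sizes are likely to be underestimates. Both SEs rest on a spread shared by all groups, and the SD was 0.16 in the tumors but 1.43 in kidney. With only the groups compared in the fit, the difference from lymph node was 7.24 ± 0.58 (limma adjusted p = 0.00428). That from the tumors was then 7.19 ± 0.21 (limma adjusted p = 3.67e-15), with the tumors still in the fit. Tumor 4, the highest tumor at 3.72, was still 4.93 below kidney replicate 1.

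CAT, the enzyme that clears hydrogen peroxide, was bright in every tissue sample and lowest in the cell lines. Its level was 12.37 and 11.95 in kidney, 12.17 and 12.05 in liver, 10.81 and 9.17 in lymph node, and 6.80 and 6.25 in the cell lines. The tumors ran from 8.06 through a median of 9.13 to 10.81 in tumor 5. On the brightest probe set kidney and liver did not overlap the tumors. Both lymph nodes lay within the range of the tumors, with 8 tumors below both and tumor 5 just above both. Kidney and liver exceeded the tumors by 2.97 ± 0.34 (limma adjusted p = 1.06e-06), a ratio of 7.84. The order of the group means was kidney, liver, lymph node, tumors and cell lines. Neither kidney minus liver (0.05 ± 0.61, limma adjusted p = 0.9999) nor lymph node minus tumors (0.83 ± 0.46, limma adjusted p = 0.407) was called.

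ACAA1, the peroxisomal thiolase, was the member that separated liver from kidney. Its level was 8.33 and 8.12 in kidney, 10.94 and 10.57 in liver, 7.70 and 7.35 in lymph node, and 7.35 and 7.52 in the cell lines. The tumors ran from 5.90 through a median of 6.64 to 7.49 in tumor 7. On the brightest probe set both livers were above every other array, and both kidneys came next. On 1592158_x_at the mean of kidney was 5.68, beside 5.74 in lymph node and 6.23 in the cell lines. Kidney and liver exceeded the tumors by 2.84 ± 0.25 (limma adjusted p = 1.93e-08), a ratio of 7.15. Kidney was lower than liver by 2.53 ± 0.44 (limma adjusted p = 0.000586), where 3.81% of probe sets were called in either direction and ACAA1 was the 1 member called of 5. Its probe sets 1597719_at and 1592158_x_at were called in the same direction, and the dim 1592344_x_at was not. The call on the brightest probe set was lost without kidney replicate 2 (limma adjusted p = 0.0102) or liver replicate 1 (0.0126), and with only the kidney and liver arrays in the fit (0.0250).

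SLC27A2 was the other member whose level leaned to liver, with a difference of kidney from liver of -1.47 ± 0.36 (limma adjusted p = 0.0142). With the organ replicate number as a random block the adjusted p was 0.00413, past the threshold, and as a fixed term on the 6 normal samples it was 0.316. The kidney samples themselves were 2.02 apart, so the difference was -2.48 without kidney replicate 2 and -0.45 without kidney replicate 1. It was -2.66 in the arrays of low 5′ signal and -0.28 in those of full 5′ signal, each with 1 kidney and 1 liver.

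DECR1, which reduces the double bonds of unsaturated chains, had 10.17 and 10.36 in kidney, 9.81 and 9.54 in liver, and 8.10 and 7.57 in lymph node. Cell line 1 was at 6.86 and cell line 2 at 5.49. The tumors ran from 5.12 in tumor 9 through a median of 6.14 to 7.60 in tumor 7. Kidney and liver were above lymph node in every sample, and 14 of 15 tumors were below both lymph nodes. Kidney and liver exceeded the tumors by 3.65 ± 0.41 (limma adjusted p = 6.82e-07), a ratio of 12.5. The 3 brightest DECR1 probe sets carry the consecutive numbers 1584001, 1584002 and 1584003 and may not be independent of each other. Their target sequences were not examined.

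ECHS1, the mitochondrial hydratase, also had both lymph nodes within the range of the tumors. Its level was 9.86 and 11.48 in kidney, 10.30 and 10.62 in liver, 7.17 and 7.20 in lymph node, and 9.10 and 8.55 in the cell lines. The tumors ran from 6.63 in tumor 2 through a median of 7.37 to 8.23 in tumor 5. Kidney and liver were highest, the cell lines stood between them and the tumors, and 11 tumors were above both lymph nodes while 4 were below both. Kidney and liver exceeded the tumors by 3.17 ± 0.25 (limma adjusted p = 4.03e-09), a ratio of 9.0.

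Lymph node set the contrast within normal tissue. Kidney and liver together were called above lymph node for 4 of the 5 genes, CAT, ACAA1, ECHS1 and SLC27A2, where 4.43% of all probe sets were called higher. On the brightest probe sets both lymph nodes lay below every kidney and liver sample for all 5, and no share of all probe sets was counted for this. The difference was 3.38 ± 0.39 for ECHS1 (limma adjusted p = 1.97e-06) and 1.96 ± 0.38 for ACAA1 (limma adjusted p = 0.00118). For CAT it was 2.14 ± 0.53 (limma adjusted p = 0.00790) and the lymph nodes themselves were 1.63 apart. The CAT probe sets 1595237_s_at (3.11 ± 0.73, limma adjusted p = 0.00580) and 1587849_at (1.57 ± 0.16, 2.34e-07) were called as well. The dim 1595236_at (1.27 ± 0.43, 0.0578) and 1592623_at (0.08 ± 0.12, 0.826) were not. DECR1 had the same size of difference as the brightest CAT probe set, 2.14 ± 0.63, and missed the threshold (limma adjusted p = 0.0256). It was called with the replicate number as a block (0.00256) and as the mean of its probe sets (0.00903), and not with 5′ signal as a covariate (0.027). Without the block, its probe set 1584002_s_at was called (2.37 ± 0.51, limma adjusted p = 0.00285). Its probe sets 1584001_at (1.95 ± 0.60, 0.0327) and 1592274_at (0.67 ± 0.44, 0.432) were not.

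The CAT call against lymph node on the brightest probe set was the least stable of these. It was lost in 11 of the 23 fits that left out 1 array, with a difference of 1.32 without lymph node replicate 2. It was also lost without any 1 kidney or liver sample (0.0123 to 0.0245) and without tumor 2, 6, 7, 8, 14 or 15 (0.0101 to 0.0106). It was not called within the arrays of low 5′ signal (1.46, 0.100) or of full 5′ signal (2.82, 0.0806), which hold 3 normal samples each. ACAA1 lost its call against lymph node without lymph node replicate 2 (limma adjusted p = 0.0390). Against lymph node, kidney alone was called higher for 2 of 5 genes, ECHS1 and SLC27A2, beside 3.52% of probe sets, and liver alone for 3, ACAA1, ECHS1 and SLC27A2, beside 3.96%.

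Lymph node and the tumors showed no called difference for the 5 genes in limma (0 of 5 called), where 4.24% of probe sets were called in either direction. The unadjusted p was under 0.05 for 2 of them, DECR1 and ACAA1. Lymph node minus tumors was 1.51 ± 0.54 for DECR1 (limma adjusted p = 0.111) and 0.88 ± 0.33 for ACAA1 (0.143). It was -0.21 ± 0.34 for ECHS1 (0.896) and -0.05 ± 0.27 for SLC27A2 (0.978). A missed threshold does not show equal levels. Only 2 lymph nodes were measured, and each standard error here takes its spread from all groups.

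With the 3 organs pooled as 1 normal group, all 5 genes were called lower in the tumors, beside 2.93% of all probe sets, with differences from -2.04 for ECHS1 to -4.78 for SLC27A2. The ECHS1 call was lost with the replicate block (limma adjusted p = 0.0205) and without any 1 kidney or liver sample (0.0173 to 0.0220). In the arrays of low 5′ signal alone CAT was the 1 gene called, and in those of full 5′ signal alone 0 were called in limma (adjusted p = 0.0229 to 0.132, with 5 of 5 at an unadjusted p under 0.05), with differences from -1.91 to -5.04.

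**Figure D2:**
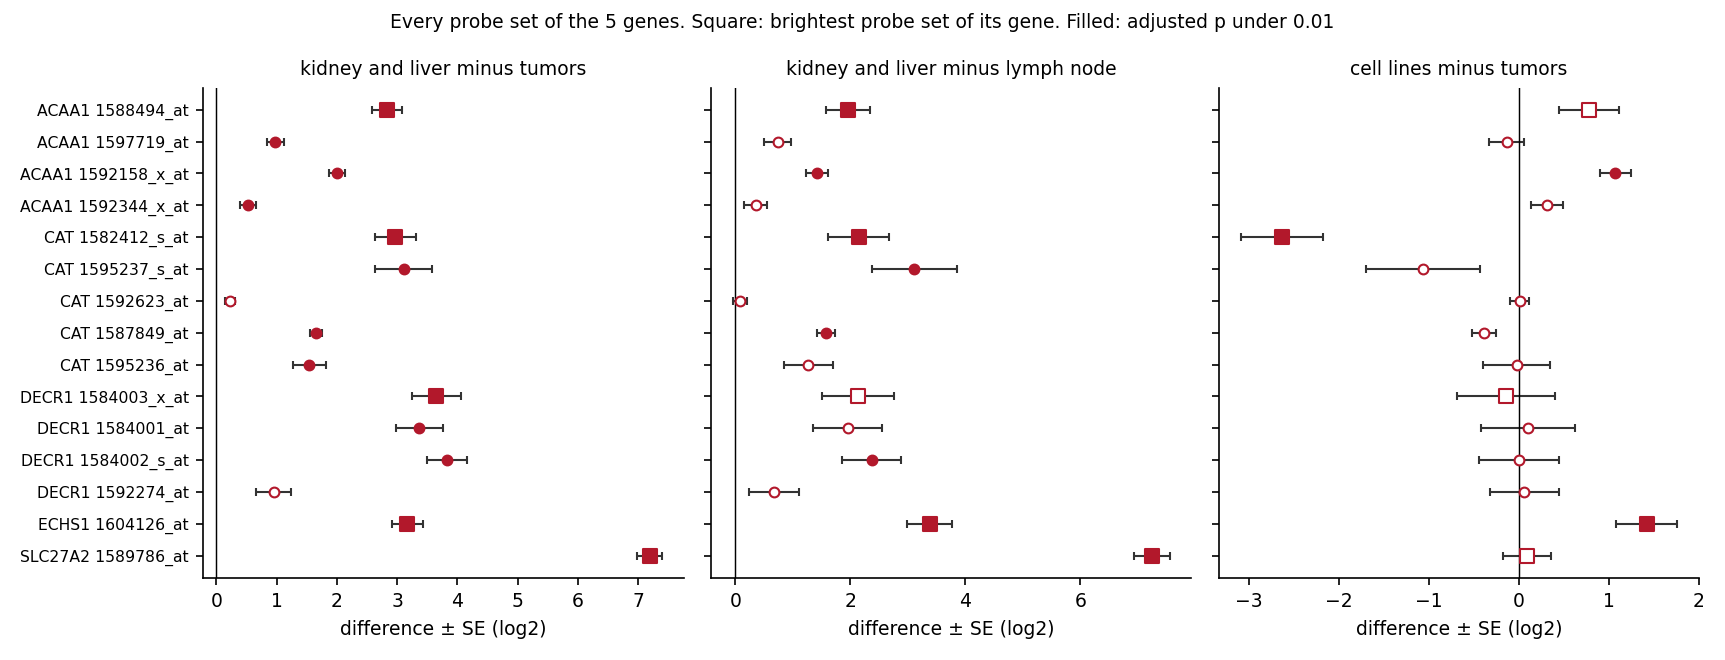
Difference in RMA log2 expression with its SE (horizontal axis) for each of the 15 probe sets in 3 comparisons. Squares are the brightest probe set of each gene and filled points have a limma adjusted p under 0.01; all points lie right of 0 in the first 2 panels, and in the third CAT 1582412_s_at lies left of 0 and ECHS1 and ACAA1 1592158_x_at lie right of it.

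The further probe sets of CAT, ACAA1 and DECR1 were mostly dimmer and gave smaller differences in the same direction. All 15 probe sets were higher in kidney and liver than in the tumors, and the 2 that were not called were CAT 1592623_at (0.23 ± 0.08, limma adjusted p = 0.0491) and DECR1 1592274_at (0.95 ± 0.28, limma adjusted p = 0.0214). The CAT probe sets disagreed on kidney against liver. The brightest, 1582412_s_at, put them level, the other bright one, 1595237_s_at, had kidney at -1.78 ± 0.85 from liver (limma adjusted p = 0.358), and the dim 1587849_at was called lower in kidney by 1.85 ± 0.18 (limma adjusted p = 1.86e-07). On 1595237_s_at the kidney samples were at 8.19 and 12.01, a gap of 3.81 and the widest of any member probe set in kidney. Kidney replicate 1 was there below tumors 4 (8.21), 11 (8.23), 9 (8.64) and 5 (9.40). Kidney was not called above the tumors on this probe set (2.22 ± 0.64, limma adjusted p = 0.0255).

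The cell lines and the tumors differed in opposite directions for CAT and ECHS1. These were the 2 of 5 genes called, beside 6.27% of all probe sets in either direction. CAT was lower in the cell lines by 2.64 ± 0.46 (limma adjusted p = 0.000778), a ratio of 6.22, and all 15 tumors were above both lines. ECHS1 was higher by 1.42 ± 0.34 (limma adjusted p = 0.00812), a ratio of 2.68, and all 15 tumors were below both lines. The levels of DECR1 (-0.15 ± 0.54) and SLC27A2 (0.09 ± 0.27) were not called, and the lines differed from each other by 1.37 for DECR1.

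Neither call was firm with 2 lines. Without cell line 1 the adjusted p in limma was 0.0102 for CAT and 0.164 for ECHS1, and without cell line 2 it was 0.0337 and 0.0379. ECHS1 also lost its call in 12 further fits that left out tumor 3, 7, 8, 9, 10, 11, 13 or 15 or any 1 liver or lymph node (adjusted p = 0.01005 to 0.01135), which is 14 of 23 fits. Against the 8 tumors of full 5′ signal, the class of both lines, the differences were -2.62 for CAT (0.0154) and 1.54 for ECHS1 (0.0211). The other bright CAT probe set, 1595237_s_at, gave -1.07 ± 0.64 (limma adjusted p = 0.279).

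The difference CAT minus ECHS1 was then taken within each array, which removes any shift shared by both probe sets. It was -2.30 in each of the 2 cell lines, and 1.76 ± 0.61 (SD, n = 15) in the tumors, from 0.73 to 2.58. In the 6 normal samples it was 1.98 ± 1.06 (SD, n = 6), from 0.46 in kidney replicate 2 to 3.64 in lymph node replicate 1. The cell lines lay apart from every tissue array, all of which were above 0. The sign itself has no meaning, since it sets 1 probe set against another. The mean of the lines differed from that of the tumors by -4.06 and from that of the normal samples by -4.27. This pair of genes was named with results of these data known, so the shift is a description of these 2 lines and no test is given for it.

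With CAT read from its other bright probe set the shift was -2.49 against the tumors and -2.51 against the normal samples. With each gene as the mean of its probe sets it was -2.24 against the tumors and -1.56 against the normal samples. In the arrays of full 5′ signal alone it was -4.16 against the tumors and -3.58 against the normal samples. The macrophage markers, 10 of 12 measured, had a mean of 6.87 to 9.62 in the tumors, 5.83 to 8.80 in the organs and 4.53 to 4.64 in the lines. In kidney, where the CAT mean was 12.16, the macrophage mean was 5.83 to 5.86, the lowest of the organs. Their part in the CAT level was not tested.

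**Figure D3:**
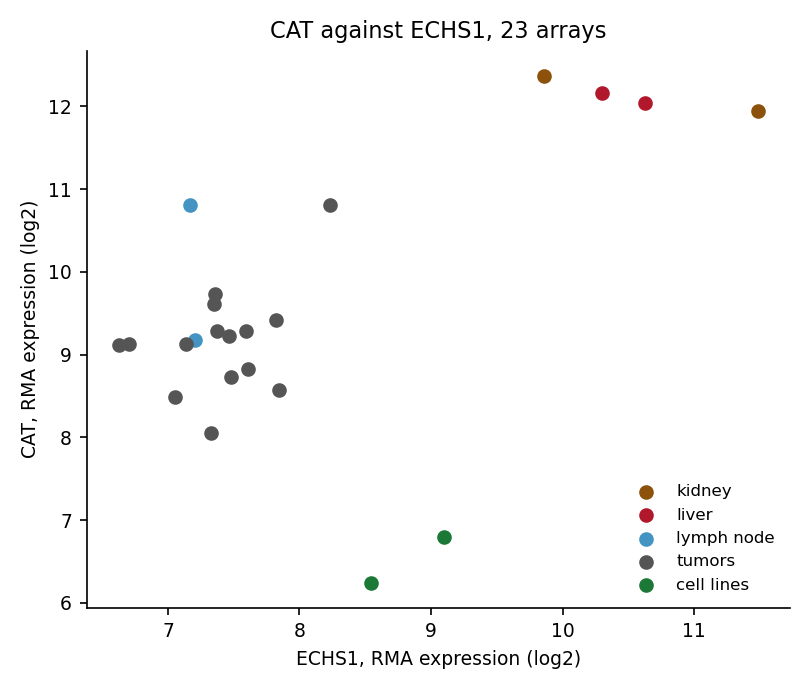
RMA log2 expression of CAT (vertical) against ECHS1 (horizontal), brightest probe sets, 1 point for each of the 23 arrays, coloured by group. The 2 cell lines lie apart at the lower right, the kidney and liver samples at the upper right, and the lymph nodes among or just above the tumors.

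ACAA1 was the third gene in which the lines stood off from most tumors. Cell lines 1 and 2 were at 7.35 and 7.52, above 14 of the 15 tumors, and the difference of 0.78 ± 0.33 was not called (limma adjusted p = 0.123). Against the tumors of full 5′ signal it was 1.19 and was called (limma adjusted p = 0.00454), and the probe set 1592158_x_at was called over all tumors (1.07 ± 0.17, limma adjusted p = 0.000318). Set against the organs, the lines were called lower than kidney for 4 of 5 genes, all but ACAA1, beside 4.82% of probe sets. They were called lower than liver for 4, all but ECHS1 (-1.64 ± 0.45, limma adjusted p = 0.0128), beside 5.74%. Against lymph node CAT was the 1 gene called (-3.47 ± 0.61, limma adjusted p = 0.000581), beside 6.68% in either direction, and ECHS1 was 1.64 ± 0.45 higher without a call (limma adjusted p = 0.0191).

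Within the 15 tumors the SD of the level was largest for DECR1, 0.81, followed by CAT with 0.64, ACAA1 with 0.51 and ECHS1 with 0.42. The brightest ACAA1 probe set split by 5′ signal. The 7 tumors of low 5′ signal had 6.73 to 7.49 with a mean of 7.11, and the 8 of full 5′ signal had 5.90 to 6.64 with a mean of 6.25, without overlap. The difference of 0.86 ± 0.13 was called (limma adjusted p = 0.000800), as were 3.18% of all probe sets in either direction. The other 3 ACAA1 probe sets differed by 0.13 ± 0.09 (limma adjusted p = 0.419), 0.16 ± 0.10 (0.363) and 0.30 ± 0.08 (0.0381) and were not called. CAT (0.03 ± 0.32), DECR1 (0.54 ± 0.38), ECHS1 (0.25 ± 0.20) and SLC27A2 (0.01 ± 0.09) were not called either, and the cause of the split on that ACAA1 probe set was not tested.

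Tumor 5 had the highest CAT, 10.81, and the highest ECHS1, 8.23, of all tumors. The next tumor was at 9.73 for CAT and 7.84 for ECHS1, and on the other bright CAT probe set tumor 5 was again highest at 9.40. It also had the highest mean of the skeletal muscle markers, 10 of 11 measured, at 8.94 against 5.77 in the next tumor. Its adipocyte mean, 5 of 9 measured, was the highest at 8.68 against 7.22, and its osteoblast mean the lowest at 7.88. The part of these markers in the CAT and ECHS1 levels was not tested.

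**Figure D4:**
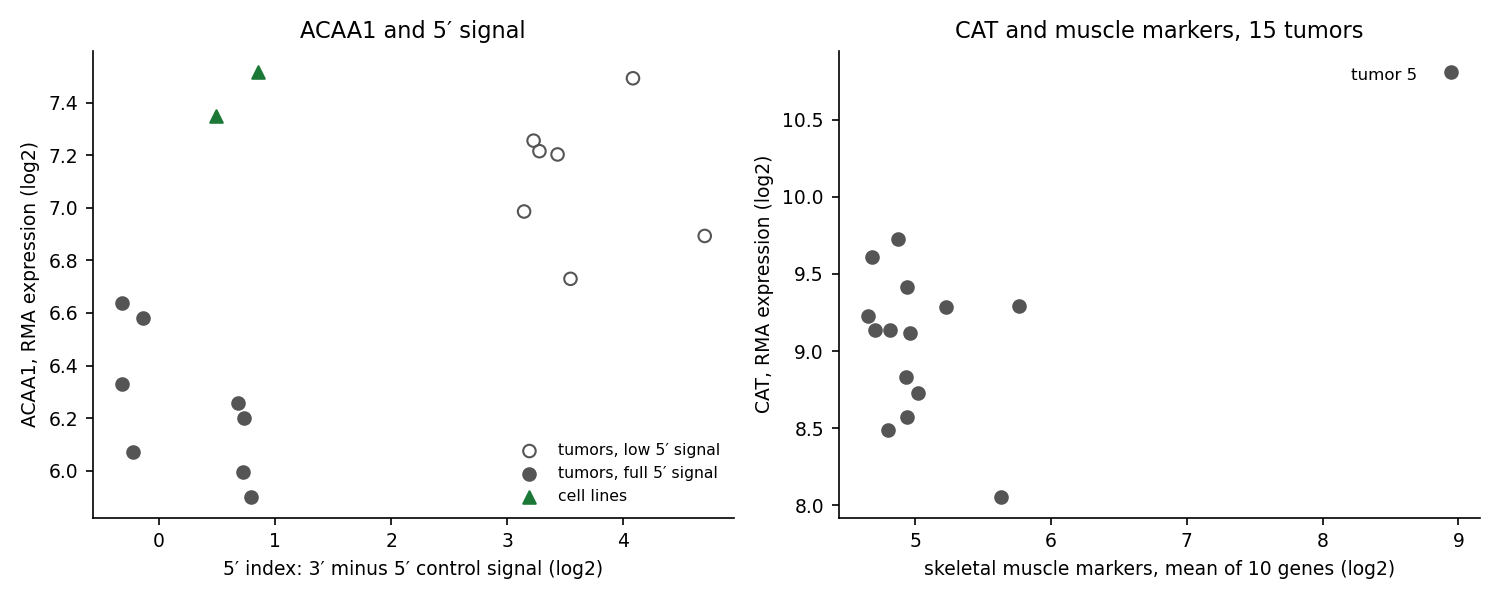
Left, RMA log2 expression of the brightest ACAA1 probe set against the 5′ index (mean of 3′ minus 5′ signal of the actin and Gapdh controls, log2) for 15 tumors and 2 cell lines. Right, RMA log2 expression of CAT against the mean log2 level of 10 skeletal muscle markers in the 15 tumors; tumors of low 5′ signal have ACAA1 from 6.73 up, those of full 5′ signal at most 6.64, and tumor 5 stands apart at 10.81 for CAT and 8.94 for the markers.

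The members did not vary together across the tumors to a degree that 15 samples could show. Of the 10 pairs, 0 passed an adjusted p of 0.05 for Pearson's r or Spearman's rho and 0 passed without adjustment for r (permutation tests with 100000 permutations). The largest r was that of ACAA1 with DECR1 (r = 0.465, permutation p = 0.0814, adjusted 0.345; rho = 0.489, permutation p = 0.0671, adjusted 0.335), which was 0.458 without tumors 2 and 7, the farthest from the ACAA1 median. Within the 7 tumors of low 5′ signal its r was 0.846 (exact permutation p = 0.0190, unadjusted) and within the 8 of full 5′ signal -0.02 (exact permutation p = 0.967). All 10 pairs were computed in both classes without adjustment, so an unadjusted p under 0.05 can arise by chance. ECHS1 with SLC27A2, the latter near the lower end of its scale, also fell under 0.05 in the tumors of full 5′ signal (r = 0.784, exact permutation p = 0.0245). The largest rho was that of ACAA1 with ECHS1 (r = 0.444, permutation p = 0.0976, adjusted 0.345; rho = 0.507, permutation p = 0.0568, adjusted 0.335). Its r was 0.375 without tumors 2 and 7, and 0.656 without tumor 5. CAT with ECHS1 had r = 0.393 (permutation p = 0.146, adjusted 0.345; rho = 0.300, permutation p = 0.277, adjusted 0.443) over 15 tumors. It was -0.01 without tumors 3 and 5, the farthest from the CAT median, and -0.0042 without tumor 5 alone, so what relation there was rested on tumor 5.

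The genes whose levels followed a member most closely over the 23 arrays are given as a description, since all arrays share the differences between organs. For CAT they were ALDH2 (r = 0.954), ACSL5 (0.905) and NXPH2 (0.861). For DECR1 they were PRKCZ (0.932), CHPT1 (0.920) and MDH1 (0.909), and for ACAA1 ALAD (0.960), GRHPR (0.944) and SEPHS2 (0.943). For ECHS1 they were ALDH1L1 (0.965), PLA2G12A (0.942) and ANKS4B (0.924), and for SLC27A2 DIO1 (0.995), UGT1A6 (0.990) and AGXT2 (0.988). ALDH2, the mitochondrial aldehyde dehydrogenase, was also among the 3 closest to CAT over the 15 tumors alone (r = 0.868), beside ICAM1 (0.869) and TMEM9B (0.863). Over the tumors the closest were FAM214A (0.820), EPHX2 (0.790) and MPC1 (0.769) for DECR1, COL27A1 (0.896), AP1G1 (0.878) and CLK3 (0.877) for ACAA1, and ENO3 (0.779), PACSIN3 (0.773) and RNPC3 (0.771) for ECHS1. Those of SLC27A2 in the tumors, HHIP (0.899), CYP2J2 (0.881) and SDK1 (0.822), were read near the lower end of its scale.

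The rest of the pathway was read from role lists of 123 genes, of which 65 were measured by a probe set with 1 symbol. In kidney and liver against the tumors 34 of the 65 were called higher and 0 lower (52.3%, beside 7.91% of all probe sets), and the median difference was 1.23 against 0.01 over all probe sets. Of 12 mitochondrial beta-oxidation genes 11 were higher. Among them ACAT1, the mitochondrial acetoacetyl-CoA thiolase, was higher by 2.48 ± 0.53, ACAA2, a mitochondrial thiolase, by 2.39 ± 0.25, ACADM, the medium-chain dehydrogenase, by 2.01 ± 0.25, and ETFDH, which passes electrons from the dehydrogenases to the respiratory chain, by 1.72 ± 0.25.

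In the same comparison 5 of 14 genes of fatty acid uptake, activation and carnitine entry were higher, led by the acyl-CoA synthetase ACSL5 (4.16 ± 0.38), the bile acid and fatty acid ligase SLC27A5 (3.60 ± 0.20) and ACSL1 (3.23 ± 0.36). The others were MLYCD, the malonyl-CoA decarboxylase (2.03 ± 0.30), and DBI, which binds acyl-CoA (1.59 ± 0.19). Of 10 genes of peroxisomal beta-oxidation 5 were higher, among them PECR (1.98 ± 0.37), the sterol carrier gene SCP2 (1.90 ± 0.26) and HSD17B4 (1.80 ± 0.29). The others were ECI2 (1.82 ± 0.26) and ABCD4 (1.47 ± 0.26), whose product is a cobalamin transporter of the lysosome. Of 15 other peroxisomal enzymes 10 were higher, led by the hydroxyacid oxidases HAO1 (3.81 ± 0.08) and HAO2 (3.62 ± 0.10), the glutathione transferase GSTK1 (2.89 ± 0.24) and the epoxide hydrolase EPHX2 (2.88 ± 0.37). Of 9 genes that build the peroxisome 1 was higher. That was PEX7 (1.33 ± 0.25), the receptor that imports ACAA1 protein into peroxisomes. The 1 ketone body gene measured, BDH1, was higher by 2.60 ± 0.25. Among 4 regulators PPARGC1A was the 1 called, by 0.50 ± 0.11.

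Against lymph node, 19 of the 65 were called higher in kidney and liver and 0 lower (29.2%, beside 4.43% of all probe sets), with a median of 1.15 against -0.00154 over all probe sets. They were 8 of 15 other peroxisomal enzymes, 4 of 12 mitochondrial, 4 of 14 uptake and 3 of 10 peroxisomal beta-oxidation genes. The other peroxisomal enzymes were led by HAO1 (3.96 ± 0.13), HAO2 (3.55 ± 0.16), EPHX2 (3.15 ± 0.57) and GSTK1 (3.13 ± 0.36). The mitochondrial genes were ACAA2 (3.38 ± 0.39), ACADM (2.56 ± 0.39), ETFB (1.65 ± 0.37) and HADHA (1.45 ± 0.30). The uptake genes were SLC27A5 (3.58 ± 0.31), ACSL1 (3.55 ± 0.55), ACSL5 (2.96 ± 0.58) and DBI (1.43 ± 0.29), and those of peroxisomal beta-oxidation were ECI2 (2.18 ± 0.39), ABCD4 (1.70 ± 0.40) and SCP2 (1.63 ± 0.40). Without lymph node replicate 2 the count was 9. Between lymph node and tumors 1 gene was called (1.54%, beside 4.24% in either direction), BDH1, the ketone body dehydrogenase, by 1.62 ± 0.34 (limma adjusted p = 0.00386), and this call was lost without either lymph node. The median there was -0.02. Kidney was called below liver for 3 genes (4.62%, close to the 3.81% of all probe sets called in either direction), HAO1 by 7.43 ± 0.15, SLC27A5 by 6.81 ± 0.36 and EPHX2 by 3.51 ± 0.66. The means over both organs hid this, since kidney alone minus the tumors was 0.10 ± 0.11 for HAO1 and 0.20 ± 0.27 for SLC27A5, neither called, and liver minus the tumors was 7.52 ± 0.11 and 7.01 ± 0.27. Kidney alone was called higher than the tumors for 24 of the 65 genes (36.9%, beside 5.26%) and liver alone for 27 (41.5%, beside 5.86%).

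Between cell lines and tumors 3 of the 65 genes were called (4.62%, beside 6.27% of all probe sets). ACSL5 was lower in the lines by 2.41 ± 0.51 (limma adjusted p = 0.00353). ACAD9, a mitochondrial acyl-CoA dehydrogenase that also helps assemble complex I, was higher by 1.55 ± 0.30 (limma adjusted p = 0.00176). FDPS, the farnesyl diphosphate synthase of cholesterol synthesis, was higher by 2.12 ± 0.44 (limma adjusted p = 0.00311). Each of the 3 calls was lost when cell line 1 was left out and when cell line 2 was left out, and the median of the list was 0.29 against -0.02 over all probe sets. In the tumors against the pooled organs 14 of the 65 were called lower and 0 higher (21.5%, beside 2.93% of all probe sets), with a median of -0.88. Among them were ACSL5 (-3.17 ± 0.49), MLYCD (-1.67 ± 0.28) and DBI (-1.12 ± 0.24) of the uptake genes, and the peroxisomal enzymes HAO2 (-2.44 ± 0.45), GSTK1 (-1.85 ± 0.43), LONP2 (-1.78 ± 0.39) and PIPOX (-1.75 ± 0.40). ETFDH (-1.26 ± 0.27) and HSD17B10 (-0.94 ± 0.21) were the mitochondrial genes, and SCP2 (-1.36 ± 0.29), BDH1 (-2.27 ± 0.27) and PEX7 (-1.21 ± 0.21) were called as well. That count was 6 to 9 without any 1 kidney or liver sample and 24 without lymph node replicate 2.

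**Figure D5:**
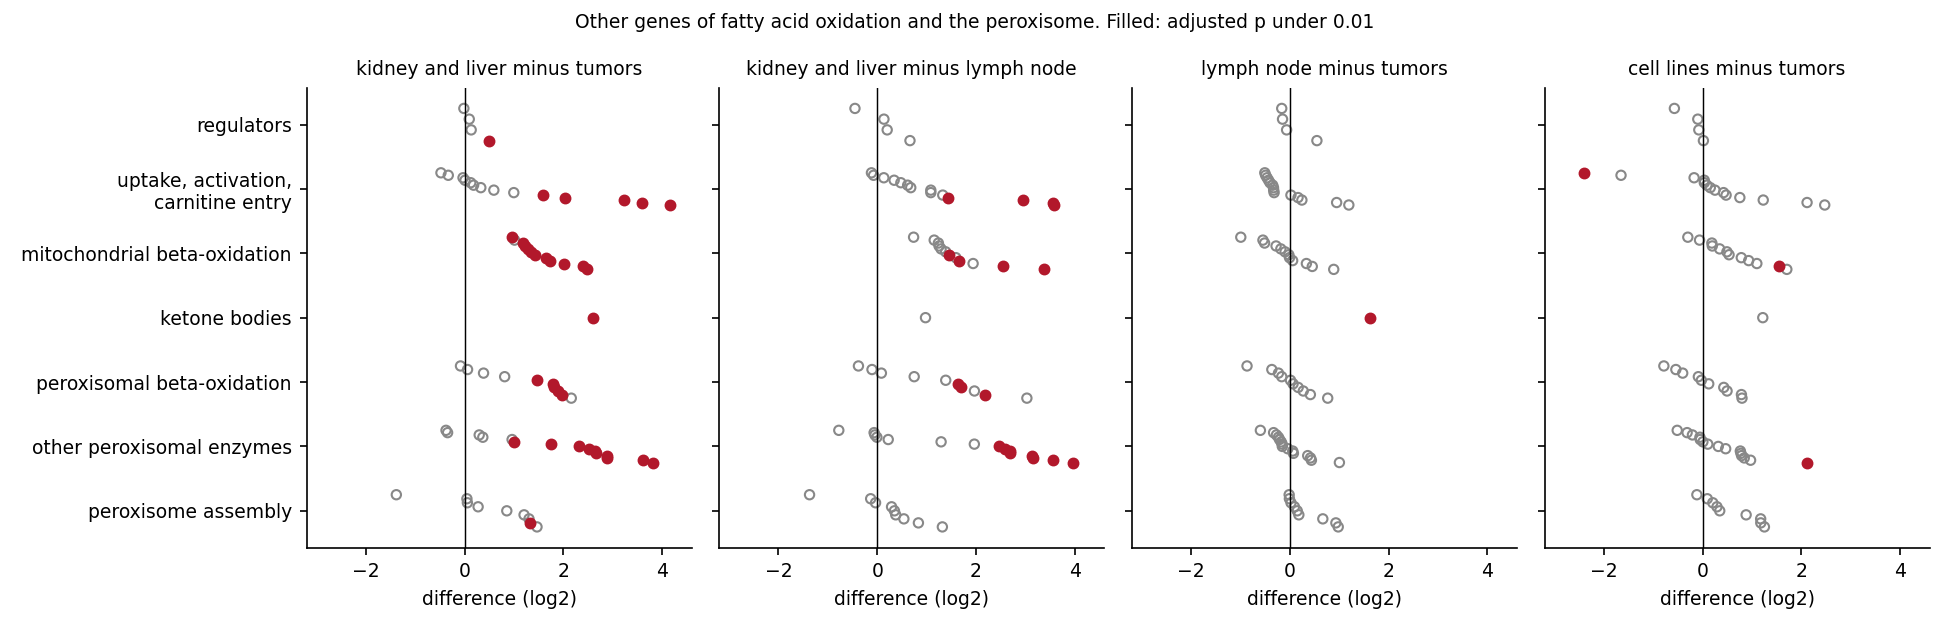
Difference in RMA log2 expression (horizontal axis) of the 65 other measured pathway genes, 1 point per gene, in rows by role, for 4 comparisons. Filled points have a limma adjusted p under 0.01; they lie right of 0 in kidney and liver against the tumors (34 genes) and against lymph node (19 genes), and are few in the other panels (1 and 3).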

How the data were processed

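The deposited values are the authors' log2 expression values, made by RMA with the affy package per the labels, from one-cycle labelled RNA on canine arrays hybridized as 1 group. RMA background-corrects, quantile-normalizes and summarizes each probe set. It hides changes in total RNA and compresses dim differences. Their versions are not given in the sources used here. The number of arrays limits the precision, since an array gives no read depth.

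From 23913 probe sets 77 controls were removed, and limma 3.58.1 in R 4.3.3 (lmFit, eBayes, two-sided, Benjamini-Hochberg over 23836 probe sets, threshold 0.01) was run. Tumors against pooled organs used 2 groups of arrays, and other contrasts used all 23 arrays in 5 groups, with 1 shared estimate of the spread. The platform annotation gave 10549 probe sets 1 symbol, 138 several and 13149 none. A gene stands for its probe set with the highest mean. Arrays were classed by the mean of 3′ minus 5′ log2 signal of the actin and Gapdh controls, with a border of 1.5. Permutation tests of correlations, exact within a class of tumors, were run in Python 3.11.15.

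The members, gene lists and tests were chosen with earlier results of these data known. All member probe sets are named, as are up to 4 called genes with the largest difference per role list and comparison, any gene of a called count of 5 or fewer, and the 3 genes most like each member. Single organs against the tumors are given as counts. Alternatives were the replicate block, the 5′ index as a covariate, each class of 5′ signal alone, a filter on dim probe sets, the mean of a gene's probe sets, a trended prior, other thresholds, only the groups compared, and each array left out. The fits were tested on simulated data.

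Same-numbered organ samples deviated together over all probe sets (r = 0.607, 0.596 and 0.530, each over 0.1), so the numbers, which come from the labels, were taken to pair the samples. Replicate 1 of each organ is also the array of low 5′ signal, so both splits coincide there. The correlation therefore cannot tell samples of the same dog from arrays of the same 5′ class. The normal samples are described as biological replicates, but the labels do not say which came from the same dog. The limma p-values of the main fits rest on a spread shared by the groups, and most of those arrays are tumors.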

Additional observations from a re-analysis of the deposited data

Results flagged for a closer look

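These probe sets drew attention because their difference between groups itself changed with the arrays or the organ. In kidney and liver against the tumors, 3 dimmer member probe sets were flagged for another size in the arrays of full than of low 5′ signal. Each class held 1 kidney and 1 liver, so the flags compare single organ arrays and no spread within an organ enters them. The full minus low difference was 0.96 for ACAA1 1597719_at, 1.75 for DECR1 1592274_at and -1.82 for CAT 1595236_at. The brightest probe sets, which were not flagged, gave -0.24 for CAT, 0.50 for DECR1, 0.57 for ACAA1, 1.23 for ECHS1 and 0.85 for SLC27A2. The shift of CAT 1595236_at ran opposite to those of ACAA1 and DECR1.

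The distance of the tumors from kidney and from liver differed for 4 member probe sets, which is the kidney minus liver difference tested in limma. It was -2.53 for ACAA1 1588494_at (limma adjusted p = 0.000586), -1.51 for ACAA1 1597719_at (0.000545), -2.95 for ACAA1 1592158_x_at (3.53e-09) and -1.85 for CAT 1587849_at (1.86e-07). The last is a dim probe set, and the brightest CAT probe set gave 0.05.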

How the results depend on the processing

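With 2 samples an organ and 2 lines, thresholds were often close, and the cause of the changes was not tested. Of the values recomputed for single genes, 2305 kept direction and side of the threshold, 204 lost the call, 10 gained it and 12 turned direction. Those kept include differences that were never called. They also include fits without an array outside the comparison, which cannot change the difference, so their number does not measure stability. The 5 member calls of kidney and liver against the tumors held in every alternative, except that a filter on dim probe sets removed SLC27A2 from the test.

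In tumors against pooled organs, 6 pathway genes were called with the replicate block, 1 member and 1 pathway gene in arrays of low 5′ signal, 0 members and 1 pathway gene in those of full 5′ signal, and 27 pathway genes at adjusted p under 0.05. Leaving out 1 array gave 4 to 5 members and 6 to 24 pathway genes. In kidney and liver against lymph node, 30 pathway genes were called with the replicate block, 9 in arrays of low 5′ signal and 7 with only the groups compared, and leaving out 1 array gave 2 to 4 members and 9 to 22 pathway genes. With only those groups ECHS1 had a limma adjusted p of 0.0162 and CAT of 0.0588. In kidney and liver against the tumors 18 pathway genes were called in arrays of low 5′ signal, and leaving out 1 array gave 29 to 36. Lymph node against tumors had 0 pathway genes within either class of 5′ signal, 2 at the looser threshold, and 0 to 1 with 1 array left out.

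Kidney against liver had 2 members with the replicate block, 2 in arrays of low 5′ signal, 2 at the looser threshold, 0 with only the groups compared, and 0 to 1 with 1 array left out. Cell lines against tumors had 1 member in arrays of full 5′ signal, 1 with a trended prior, 0 to 2 with 1 array left out, 5 pathway genes at the looser threshold, and 1 to 4 with 1 array left out. A lone remaining sample of a group was assumed to vary like the other groups.

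For the CAT minus ECHS1 shift against normal samples, the mean of each gene's probe sets gave -1.56 and arrays of full 5′ signal -3.58. Without either line the shift was -4.06 against the tumors and from -4.28 to -4.27 against normal samples.

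The turns of direction were all of differences that were not called. SLC27A2 in lymph node minus tumors was 0.00069 with the 5′ covariate, 0.0043 in arrays of low 5′ signal and -0.11 to 0.011 with 1 array left out, turning without lymph node replicate 2. ECHS1 in kidney minus liver was -0.44 in arrays of low 5′ signal and -0.60 to 1.02 with 1 array left out, turning without kidney replicate 2. CAT in kidney minus liver was -0.10 in arrays of full 5′ signal, -0.97 with the mean of its probe sets, and -0.16 to 0.26 with 1 array left out, turning without kidney replicate 1 (-0.16) and liver replicate 2 (-0.0092). DECR1 in cell lines minus tumors was 0.11 in arrays of full 5′ signal, 0.0034 with the mean of its probe sets and -0.83 to 0.54 with 1 array left out, turning without cell line replicate 2. The replicate block, where the pairing was used, changed no member call beside those of ECHS1, DECR1 and SLC27A2 given with the results and, as a fixed term on the 6 normal samples, that of CAT against lymph node (limma adjusted p = 0.0192).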
